A study of Rattus norvegicus with 32 samples.

Results

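C6 cells are an established rat glioma line, and angiotensin II (Ang II) is the effector peptide of the renin-angiotensin system. The comparison described here sets C6 cells that received PD123319 and Ang II against untreated C6 cells after 3 h, on 8 of the 32 arrays of the series. These were chosen by group and time alone: 4 replicates of Ang II+PD123319 and 4 of Control, each replicate number being 1 slide. The Ang II+PD123319 cells were grown to confluence in serum-containing medium, pre-treated for 30 min with PD123319 at 10 µM and then given Ang II at 0.1 µM. The Control cells came from the same line and medium and received neither agent. No cells received PD123319 without Ang II, so an effect of the antagonist by itself cannot be told apart from that of the peptide. The question is how cells with the AT2 receptor blocked differed from cells that had seen no peptide at all. The other 3 h arrays held cells given the same Ang II alone, or after 30 min with Losartan at 10 µM. They shared the normalization, the filter and the fit, and so bear on each SE and p-value here. The arrays of 6 h were used only to place these values.

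Ang II acts through a pair of receptors that span the membrane and couple to G proteins. AT1 couples to phospholipase C, calcium and the MAP kinases, and its stimulation is known for the induction of immediate early genes, growth factors and matrix genes. AT2 often opposes it, through phosphatases and nitric oxide. Losartan blocks AT1 and PD123319 blocks AT2, so that in the presence of PD123319 the peptide is left mainly with AT1.

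Each array was a single-dye Agilent rat array, and the values are log2 intensities after normalization between arrays, so that a difference of 1 is a 2-fold difference. On the 8 arrays between 56.9% and 64.4% of the spots were well above background, and no spot was saturated. The correlation between any pair of these arrays across genes lay between 0.936 and 0.994. Of 16 glial markers 10 were above background on all 8 arrays, among them Vim, Nes, S100b and Sox9, and their summed linear signal was 8889 to 11196 in Control and 8173 to 13271 in Ang II+PD123319. Gfap, the intermediate filament of astrocytes, was above background on none of them, and neither were Fabp7, Aldh1l1, Slc1a2 and Slc1a3. Markers of other cell types were mixed. Of 12 oligodendrocyte markers 5 (Cnp, Mag, Mobp, Olig1 and Sox10) were above background on all 8 arrays and 4, Mbp and Mog among them, on none, and the summed signal of those tested was 1967 to 2976 in Control and 2497 to 2897 in Ang II+PD123319. Of 12 microglia and macrophage markers 7 (Aif1, C1qb, Cd14, Cd68, Cx3cr1, Itgam and Tmem119) were above it on all 8 and 3 (C1qa, P2ry12 and Ptprc) on none, with sums of 1392 to 2288 and of 1248 to 2155. Of the 10 glial markers tested 2 passed the limits explained next, as did 6.07% of all genes. Outside the glial list Cx3cr1 was the one marker that passed them, at a log2 difference of -0.58 (SE 0.26). Of 12 neuronal markers 2 (Map2 and Snap25) were above background on all 8 arrays and 7, such as Dcx and Stmn2, on none (sums of 176 to 257 and 144 to 261), and of 10 endothelial ones 1 (Vwf) and 6, such as Pecam1 and Cldn5 (74.3 to 168.02 and 68.5 to 152.7). The part of these cell types in the results was not tested. The labels do not say whether replicates are separate cultures, so the p-values measure only the spread between these samples.

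Of 13630 genes tested, 827 (6.07%) passed both limits used here: the p before adjustment had to lie under 0.05, and the fold had to exceed 1.2 or fall short of 0.8. To be tested, a gene needed 1 group at 3 h with a signal well above background in each of its 4 replicates, and 706 of the genes called were above it on all 8 arrays. Such genes are called changed below. Of these, 352 were higher in Ang II+PD123319 (2.58% of the genes tested) and 475 were lower (3.48%). The share of lower genes among those called was 57.4%, and it was 36.3% when the background was corrected by normexp. No gene reached an adjusted p under 0.05 by limma with Benjamini-Hochberg adjustment (the lowest was 0.458), while 1033 genes had an unadjusted p under 0.05 where 681.5 would be reached by chance. Each difference below is therefore a ranked measurement, not a call that holds across all genes.

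The changes were small. The median fold of the called genes was 1.37, 23 of them differed by more than 1 on the log2 scale, and the largest fold was 4.88, for Trib3. Of the called genes, 603 went the same way in all 4 replicate pairs, 264 of them up and 339 down, whereas 9.6% and 10.9% of all genes tested did so. In 62 called genes the groups did not overlap (0.33% of all genes were higher without overlap and 0.638% lower). The same pairs gave the calls, which favours agreement among them, so neither count is separate support. The replicate pairs did not contribute alike: the median absolute difference of the called genes was 0.29 in replicate 1, 0.70 in replicate 2, 0.31 in replicate 3 and 0.44 in replicate 4. Control lay at the first position of every slide and Ang II+PD123319 at the fourth, so that position and treatment cannot be told apart.

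The 12 most lowered named genes with the same direction in all 4 pairs began with genes of the integrated stress response. When the kinase PERK (Eif2ak3) or a related kinase phosphorylates eIF2alpha, general translation slows and the factor ATF4 is made. ATF4 and its partner CHOP (Ddit3) then induce genes for amino acid supply, protein folding and, under lasting stress, cell death. Among all genes tested 3.48% were called lower and 2.58% higher. Of 14 tested genes of this response, 8 were lower and none higher, with a median log2 difference of -0.69 against -0.00 for all genes tested. They were Trib3, Ppp1r15a, Eif2ak3, Nupr1 and, named after their values were seen, Ddit3, Herpud1, Atf4 and Cebpg.

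These genes are shown with the start of their promoters, because some carry the motif through which ATF4 and C/EBP factors bind together, written TGATGNAA. In RefSeq promoters of the GRCr8 assembly, taken from 250 bases before to 50 after each start, 3.98% of 33465 hold it on either strand. Of the 13 matched genes of the stress response list 3 hold it, and of 26 matched genes for amino acid supply 10 do (38.5%). Those 3 were all called, but of the 10 only Slc7a1, Cars and Iars were. Stretches of 5 called genes follow, read 5′ to 3′ along the gene's own strand, with the match in capitals.
Trib3 (chr3:161275534-161275584, minus strand): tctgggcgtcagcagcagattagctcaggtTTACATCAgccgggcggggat
Nupr1 (chr1:190645919-190645986, minus strand): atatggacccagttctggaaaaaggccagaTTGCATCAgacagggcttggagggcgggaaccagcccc
Herpud1 (chr19:10614854-10614921, minus strand): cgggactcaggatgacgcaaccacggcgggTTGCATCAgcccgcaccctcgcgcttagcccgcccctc
Slc7a1 (chr12:11664428-11664487, plus strand): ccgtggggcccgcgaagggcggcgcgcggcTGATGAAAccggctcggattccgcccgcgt
Iars (chr17:15193653-15193706, minus strand): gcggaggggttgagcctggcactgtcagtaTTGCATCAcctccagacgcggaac
In 4 of the 5 the match lies on the opposite strand. A match is a description of letters and not a measured binding site.

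Trib3, a pseudokinase induced by ATF4 and CHOP, was measured in Control at 6.62, 11.58, 11.99 and 11.95 in replicates 1 to 4, and in Ang II+PD123319 at 5.94, 7.86, 11.87 and 7.31. The groups overlapped: both were low on the slide of replicate 1 and both high on that of replicate 3, and only in replicates 2 and 4 was a high Control set against a low Ang II+PD123319. The log2 difference was -2.29 (SE 0.73 over 4 pairs, limma, adjusted p = 0.512). It was no longer called without replicate 2 (-1.81) or without replicate 4 (-1.50).

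Ddit3 itself, the factor CHOP, fell into the same 2 levels. Control gave 10.25, 15.13, 15.03 and 15.02, and Ang II+PD123319 gave 10.42, 10.63, 15.16 and 10.32. The differences within the pairs were 0.17, -4.50, 0.13 and -4.70, so that the fitted -2.23 (SE 0.83) is the mean of 2 pairs with almost no difference and 2 with a very large one. The cells given Ang II alone read 10.20, 10.33, 15.05 and 10.08, and those given Ang II after Losartan 10.17, 10.80, 14.97 and 10.15. All 3 groups given Ang II thus stood low on the slides of replicates 2 and 4, where Control stood high. Without replicate 2 the Ddit3 difference was -1.47 and without replicate 4 it was -1.40, and neither was called.

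Other genes of the response stepped on the same arrays. Herpud1, which acts in the degradation of misfolded proteins at the endoplasmic reticulum (ER), was at 9.75, 13.19, 13.24 and 12.90 in Control and at 9.90, 9.03, 13.22 and 9.17 in Ang II+PD123319. Its difference of -1.94 (SE 0.69) was not called without replicate 2 (-1.2) or 4 (-1.34). Ppp1r15a (GADD34), the phosphatase subunit that reverses eIF2alpha phosphorylation, was at 9.91, 13.31, 13.68 and 12.90 in Control against 9.63, 10.92, 13.39 and 10.33, a difference of -1.38 (SE 0.42, limma, adjusted p = 0.496), and it was not called without replicate 4 (-0.99). For all of these genes Control replicate 1 lay several log2 units below the other Control replicates. The level of an array thus did not follow its group alone: Control replicate 1 was at the low level and Ang II+PD123319 replicate 3 at the high one. Arrays were grouped as labelled, and whether each label names the right sample was not tested, which bears on every difference of these genes.

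Atf4 itself was at 12.75, 14.61, 14.52 and 14.33 in Control and at 12.51, 12.89, 14.54 and 12.22 in Ang II+PD123319, a difference of -1.02 (SE 0.37). Nupr1, a small chromatin protein of the stress response, differed by -0.81 (SE 0.27). Both calls were lost without replicate 2 (-0.78 and -0.51) and without replicate 4 (-0.65 and -0.63). Eif2ak3 differed by -0.58 (SE 0.17), was lower in 4 of 4 pairs and stayed called whichever replicate was left out. Over the 14 genes the median difference was 0.02 in replicate 1, -1.49 in replicate 2, -0.07 in replicate 3 and -1.24 in replicate 4. The count of 8 became 9 without replicate 1 or 3, 2 without replicate 2 and 1 without replicate 4. It was 0 when the slide was not used as a block.

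**Figure D1:**
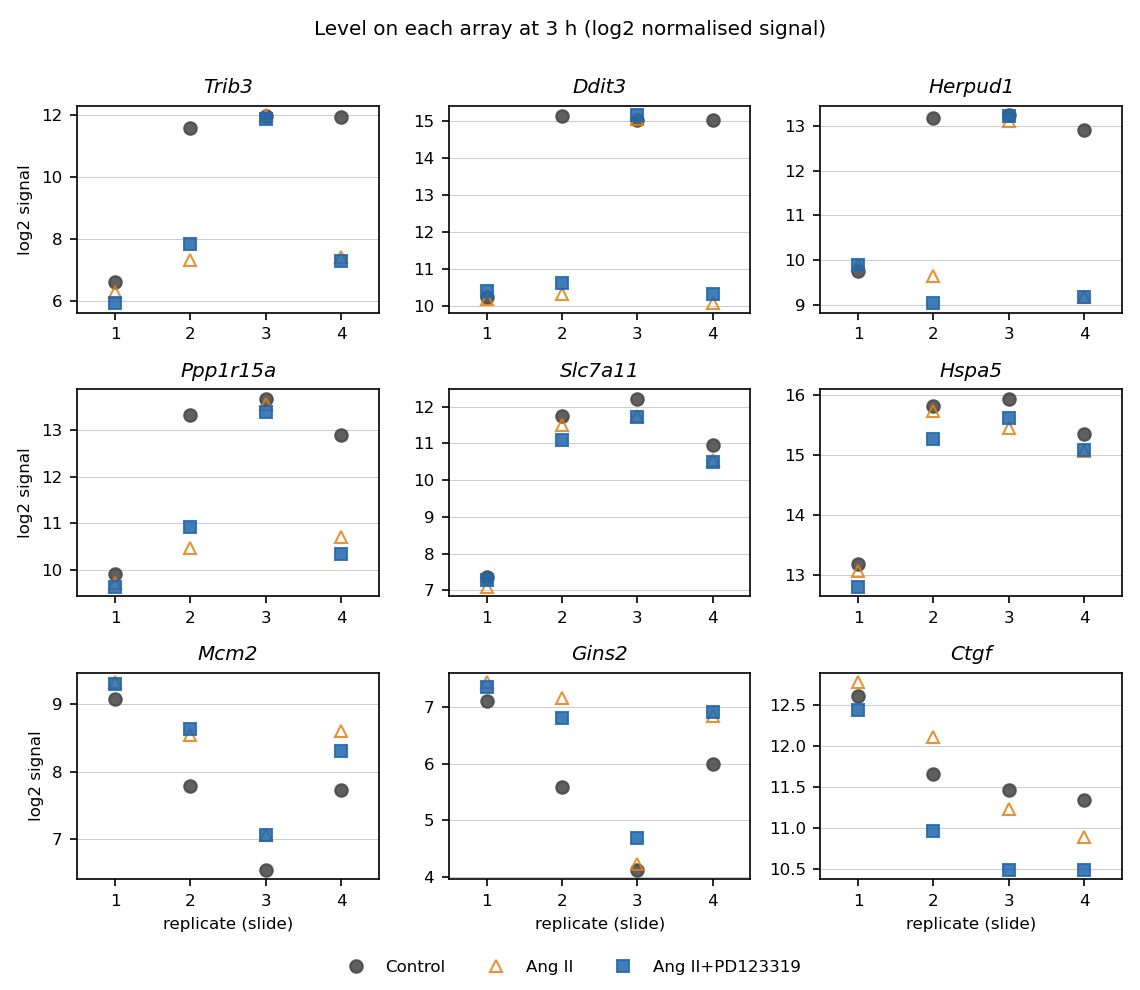
Normalized log2 intensity at 3 h (vertical axes) of 9 genes in each replicate or slide (horizontal axes), 1 point per array. Marker and colour give the group: Control, Ang II or Ang II+PD123319. The stress genes Trib3, Ddit3, Herpud1 and Ppp1r15a form a low and a high level, with 3 Control arrays and 1 Ang II+PD123319 array at the high one, while Hspa5 and Slc7a11 are high on 3 arrays of each group.

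Among the other strongly lowered genes several kept this pattern and several did not. Nfxl1, a zinc finger protein (-1.40, SE 0.42), and Gramd1b, a sterol transporter of the ER (-1.0, SE 0.33), were at their low level in Control replicate 1 and dropped in replicates 2 and 4. Nfxl1 was not called without replicate 4 (-1.15), nor was Gramd1b without replicate 2 (-0.76) or 4 (-0.64). Dnajb9, a co-chaperone of the ER, followed with -0.88 (SE 0.30) and lost its call without replicate 2 (-0.63) or 4 (-0.64).

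Slc4a7, a sodium bicarbonate cotransporter, was lower in each pair. Control read 7.21, 8.19, 9.52 and 9.16, and Ang II+PD123319 read 6.24, 6.82, 9.07 and 8.26. The slides differed by more than the treatment did, so the groups overlapped, but within pairs the differences of -0.97, -1.37, -0.46 and -0.90 all had the same sign (-0.92, SE 0.20, limma, adjusted p = 0.458).

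Tap2, a peptide transporter of antigen presentation, was also lower in each pair. Control read 9.11, 11.08, 11.26 and 10.70 and Ang II+PD123319 read 8.33, 9.49, 10.73 and 9.84 (-0.94, SE 0.21, limma, adjusted p = 0.458). Usp36, a nucleolar deubiquitinase, differed by -1.2, -1.02, -0.62 and -1.16 in the pairs, with a mean of -1.0 (SE 0.31). Slc4a7, Tap2 and Usp36 stayed called whichever replicate was left out.

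Dusp8, a phosphatase of stress MAP kinases, differed by -0.94 (SE 0.25) and Asb13, an adaptor of ubiquitin ligases, by -0.91 (SE 0.30). Both stayed called without any 1 replicate. Hps1, a protein of lysosome-related organelles, was at 8.65 to 9.31 in Control and at 7.96 to 8.55 in Ang II+PD123319, without overlap, a difference of -0.88 (SE 0.30) from 1 probe. Without replicate 4 a second probe of Hps1 passed the filter on dim probes, and the mean over both was -0.20 and not called. With the first probe alone, a setting chosen after seeing the data, it was -1.02 and called. Kif21a, a kinesin, was dim (3.03 to 4.90 over the 8 arrays), and its difference of -0.89 (SE 0.40) was -0.14 under the normexp background. It was not called without replicate 1 (-0.65) or 2 (-0.68).

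The 12 most raised genes had mostly 1 replicate in common. Ppp1r3c, a subunit that directs protein phosphatase 1 to glycogen, was at 6.64, 4.58, 6.74 and 7.5 in Control and at 7.37, 7.86, 7.26 and 8.07 in Ang II+PD123319. The groups overlapped, and Control replicate 2 stood far below the other Control arrays. Its difference was 1.28 (SE 0.51, limma, adjusted p = 0.632), made of 0.73, 3.29, 0.53 and 0.57 in the pairs, and it was not called without replicate 1, where it was 1.46.

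Low values in Control replicate 2 also carried Asna1 (now Get3, which inserts tail-anchored proteins into the ER), Gfer (a mitochondrial sulfhydryl oxidase), Ppp1r8 (a nuclear inhibitor of protein phosphatase 1) and Zfp148 (a zinc finger factor). Asna1 was at 8.12, 5.81, 7.82 and 8.03 in Control and between 8.12 and 8.40 in Ang II+PD123319. The fitted differences of Asna1, Gfer, Ppp1r8 and Zfp148 were 0.82, 0.78, 0.81 and 0.78, and without replicate 2 they were 0.23, 0.20, 0.29 and 0.32 and no longer called. Asna1 and Gfer were also not called without replicate 3 (0.93 and 0.91), nor Ppp1r8 and Zfp148 without replicate 1 (0.85 and 0.76). Pef1, a calcium-binding adaptor, had its largest pair difference there as well (1.94), but differed by 0.25, 0.71 and 0.40 in the other pairs and stayed called without any 1 replicate (0.83, SE 0.26).

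The rises spread more evenly over the replicates were fewer. Vdac3, a channel of the outer mitochondrial membrane, was at 12.23, 12.06, 12.33 and 11.65 in Control and at 13.65, 12.64, 12.51 and 12.46 in Ang II+PD123319. The lowest treated array was above the highest Control array, and the difference was 0.75 (SE 0.21, limma, adjusted p = 0.459). Psmd5, an assembly chaperone of the proteasome, differed by 1.31, 0.85, 0.61 and 0.17 in the pairs (0.73, SE 0.24).

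Pik3ip1, an inhibitor of PI3 kinase, differed by 0.76 (SE 0.24) and Ankrd34a, an ankyrin repeat protein, by 0.75 (SE 0.23). Like Vdac3 and Psmd5 they stayed called without any 1 replicate. Notch1, the receptor, was at 7.38, 5.92, 6.23 and 6.18 in Control and at 7.5, 7.58, 6.37 and 7.71 in Ang II+PD123319. Its difference of 0.86 (SE 0.32) sat in replicates 2 and 4 only, the arrays where the stress genes dropped, and it was not called without either of them (0.60 and 0.64).

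**Figure D2:**
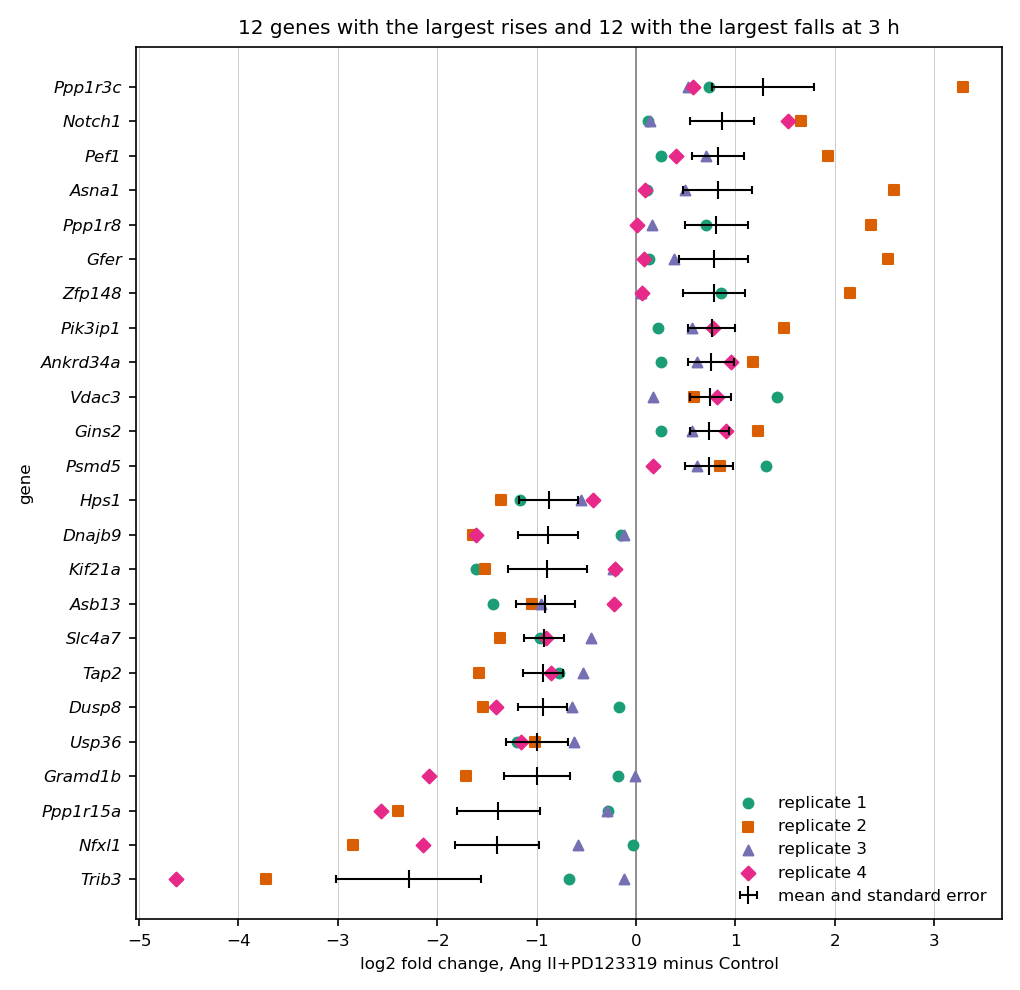
Log2 difference Ang II+PD123319 minus Control at 3 h (horizontal axis) for the 24 genes with the largest called changes in the same direction in 4 pairs, with a point for each replicate and the fitted mean with its SE. The falls of Trib3, Nfxl1 and Ppp1r15a come from replicates 2 and 4, and the rises of Ppp1r3c, Asna1 and Gfer mostly from replicate 2, whereas Usp36 and Slc4a7 have all 4 points well below 0.

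Of 29 tested genes for amino acid supply, which ATF4 induces, 5 were called, all lower, where 3.48% of all genes tested were lower. The median log2 difference of the 29 was -0.26. The difference was negative for 28 of them, as it was for 50.3% of all genes tested. In replicate 1 the pair differences had a median of 0.12, with 16 genes above 0 and 12 below, and in replicate 4 all 29 were below 0. Slc7a1, an importer of arginine and lysine, was at 7.09, 8.32, 8.83 and 7.96 in Control and at 6.94, 6.72, 8.37 and 6.47 in Ang II+PD123319 (-0.92, SE 0.24, limma, adjusted p = 0.458). Slc7a11, the cystine importer, behaved differently from Ddit3: it was low on the slide of replicate 1 (7.35 in Control and 7.27 in Ang II+PD123319) and high in both groups on all others, from 10.96 to 12.22 in Control and from 10.48 to 11.71 in Ang II+PD123319. Its smaller difference of -0.43 (SE 0.11) was present in 4 of 4 pairs.

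Slc7a1 and Slc7a11 stayed called without any 1 replicate. Mthfd2, a mitochondrial folate enzyme (-0.73, SE 0.28), and Cars, the cysteinyl-tRNA synthetase (-0.52, SE 0.21), did not hold without replicate 2 (-0.49 and -0.39) or 4 (-0.50 and -0.38). The count of 5 was 2 without replicate 2 and 2 without replicate 4.

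Of 21 tested ER chaperones and targets of XBP1 and ATF6, 5 were lower and none higher, where 3.48% of all genes were lower. The median of these ER genes was -0.30. These genes are known for an element bound by ATF6 with the general factor NF-Y, written CCAAT, any 9 bases and CCACG, searched on both strands. It was found in 7 of 17 matched promoters of the list (41.2%) and in 22 of all 33465 (0.0657%). Of the 7 genes with the element only Hspa5 and Xbp1 were called. Stretches from called genes that hold it are shown with the element in capitals.
Hspa5 (chr3:38452943-38453015, plus strand): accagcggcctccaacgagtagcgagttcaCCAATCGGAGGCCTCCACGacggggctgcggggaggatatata
Xbp1 (chr14:84604528-84604606, plus strand): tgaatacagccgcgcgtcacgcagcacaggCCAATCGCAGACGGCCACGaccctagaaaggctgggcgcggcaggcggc

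Hspa5 (BiP), the main chaperone of the ER, was at 13.18, 15.82, 15.94 and 15.35 in Control and at 12.81, 15.27, 15.62 and 15.09 in Ang II+PD123319. Both groups were low in replicate 1 and high in the other 3, and the differences within pairs were between -0.55 and -0.26. The mean was -0.37 (SE 0.14, limma, adjusted p = 0.606), a fall of 1.3-fold where Ddit3 gave 4.68-fold, and it was not called without replicate 1 (-0.37), 2 (-0.31) or 4 (-0.41).

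Hyou1, another ER chaperone, differed by -0.37 (SE 0.11) and was not called without replicate 2 (-0.25). Syvn1, the ubiquitin ligase of ER-associated degradation, differed by -0.78 (SE 0.23) and was not called without replicate 4 (-0.65). On the slides of replicates 2 and 4, Hspa5 and Hyou1 of Ang II+PD123319 were thus near their high level, while Ddit3, Trib3 and Herpud1 were near their low level. This did not hold for all genes of the list, whose pair differences reached -2.04 in replicate 2 and -1.61 in replicate 4. The count of 5 called genes was 7 without replicate 1, 2 without replicate 2 and 1 without replicate 4.

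Of 39 tested genes of DNA replication, those of the MCM helicase and the replication fork, 7 were called higher and 1 lower. Among all genes tested 2.58% were higher and 3.48% lower. The difference was positive for 34 of the 39, as it was for 49.7% of all genes tested, and the list median was 0.26. Mcm2, a helicase subunit, was at 9.08, 7.79, 6.54 and 7.73 in Control and at 9.30, 8.63, 7.06 and 8.30 in Ang II+PD123319 (0.54, SE 0.12, limma, adjusted p = 0.458). The groups overlapped because the slides differed by more than the treatment, and the treated array was the higher one in each pair. Its 2 probes gave 0.79 and 0.29, of which only the first was called.

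Gins2, part of the active helicase, was at 7.10, 5.58, 4.12 and 6.00 in Control and at 7.36, 6.81, 4.68 and 6.91 in Ang II+PD123319 (0.74, SE 0.20). Mcm6, a further helicase subunit, differed by 0.66 (SE 0.20), and the 4 pairs gave 0.68, 0.99, 0.50 and 0.48. Mcm2, Gins2 and Mcm6 stayed called without any 1 replicate. Orc2l (now Orc2), of the origin recognition complex, was lower by -0.39 (SE 0.12) and not called without replicate 2 (-0.26). Neither of its 2 probes was called by itself (-0.35, SE 0.27, and -0.42, SE 0.21). Mcm5, Mcm7, Cdt1 and Rpa1, named after their values were seen, were higher by 0.34, 0.33, 0.70 and 0.52 (SE 0.11, 0.15, 0.30 and 0.22). Cdt1 was dim, above background on only 6 of the 8 arrays.

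In Control, Mcm2, Gins2 and Mcm6 were highest on the slide of replicate 1, where Ddit3 was lowest. The list's median pair difference was -0.14, 0.44, 0.15 and 0.41 in replicates 1 to 4. The 7 higher genes were 11 without replicate 1, 5 without replicate 2, 9 without replicate 3 and 4 without replicate 4, and 0 without the slide as a block.

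E2F factors drive these genes through a site written here as TTTNGCGC. It stands in 13 of 33 matched promoters of the list (39.4%) and in 1.28% of all promoters on either strand. Of those 13 genes Mcm2, Mcm5, Mcm6, Mcm7 and Cdt1 were called and the rest were not. Matches on the 2 strands can overlap, and where they do the whole stretch they cover is in capitals.
Mcm2 (chr4:122918095-122918138, minus strand): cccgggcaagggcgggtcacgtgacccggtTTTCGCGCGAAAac
Mcm6 (chr13:42404450-42404521, minus strand): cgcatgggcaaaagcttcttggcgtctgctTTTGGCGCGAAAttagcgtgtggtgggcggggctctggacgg
Mcm5 (chr19:13488570-13488641, plus strand): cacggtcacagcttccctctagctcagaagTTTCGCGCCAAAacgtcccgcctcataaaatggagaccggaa
Mcm7 (chr12:22163193-22163260, minus strand): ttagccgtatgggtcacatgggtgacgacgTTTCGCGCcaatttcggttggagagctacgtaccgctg

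Of 36 tested genes of mitosis, which act later in the cycle, 5 were called, all higher, where 2.58% of all genes were higher. A positive difference was found for 31 of the 36, and the list median was 0.19. Aurkb, the kinase of the chromosomal passenger complex, was at 8.11, 7.13, 4.87 and 6.82 in Control and at 8.54, 7.66, 5.34 and 7.04 in Ang II+PD123319 (0.42, SE 0.13, limma, adjusted p = 0.512). Kif23, a kinesin of the dividing cell's midzone, differed by 0.29 (SE 0.10), Aurka, a kinase of the spindle poles, by 0.32 (SE 0.12) and Foxm1, a factor that induces mitotic genes, by 0.27 (SE 0.10), of whose 2 probes 1 was called (0.36 against 0.18).

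Single replicates decided these calls. Aurkb was not called without replicate 3 (0.41), Kif23 without 2, 3 or 4 (0.26, 0.27 and 0.29), Aurka without 2 or 4 (0.25 and 0.29) and Foxm1 without 1 or 4 (0.25 and 0.27). The count of 5 was 4, 2 and 3 without replicate 2, 3 and 4. The cell cycle homology region TTTGAA, part of the element that represses mitotic genes in quiescence, lies in 21 of 31 matched promoters of this list (67.7%) and in 18.3% of all promoters. Of these 21 genes only Kif23 and Mad2l1 were called. Kif23 carries the region in capitals here.
Kif23 (chr8:71320628-71320693, minus strand): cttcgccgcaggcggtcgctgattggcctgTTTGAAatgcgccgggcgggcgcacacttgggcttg

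Of 24 tested heat shock genes, the chaperones of the cytosol and mitochondria, 4 were called higher and 2 lower, and the median was 0.19. Among all genes tested 2.58% were higher and 3.48% lower. Bag3, a co-chaperone (0.55, SE 0.18), and Cryab, a small heat shock protein (0.33, SE 0.10), were higher. Hspa4, an exchange factor for the HSP70 chaperones, was lower (-0.60, SE 0.15, limma, adjusted p = 0.458), and so was Hsf1, the factor that induces these genes (-0.47, SE 0.13). Hsf1 was at 10.25 to 10.62 in Control and at 9.62 to 10.28 in Ang II+PD123319, and it was lower in 4 of 4 pairs. These 4 genes stayed called without any 1 replicate, while Cryab was not called under either other scaling (0.30 and 0.25). The 4 higher genes became 2 without replicate 2.

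**Figure D3:**
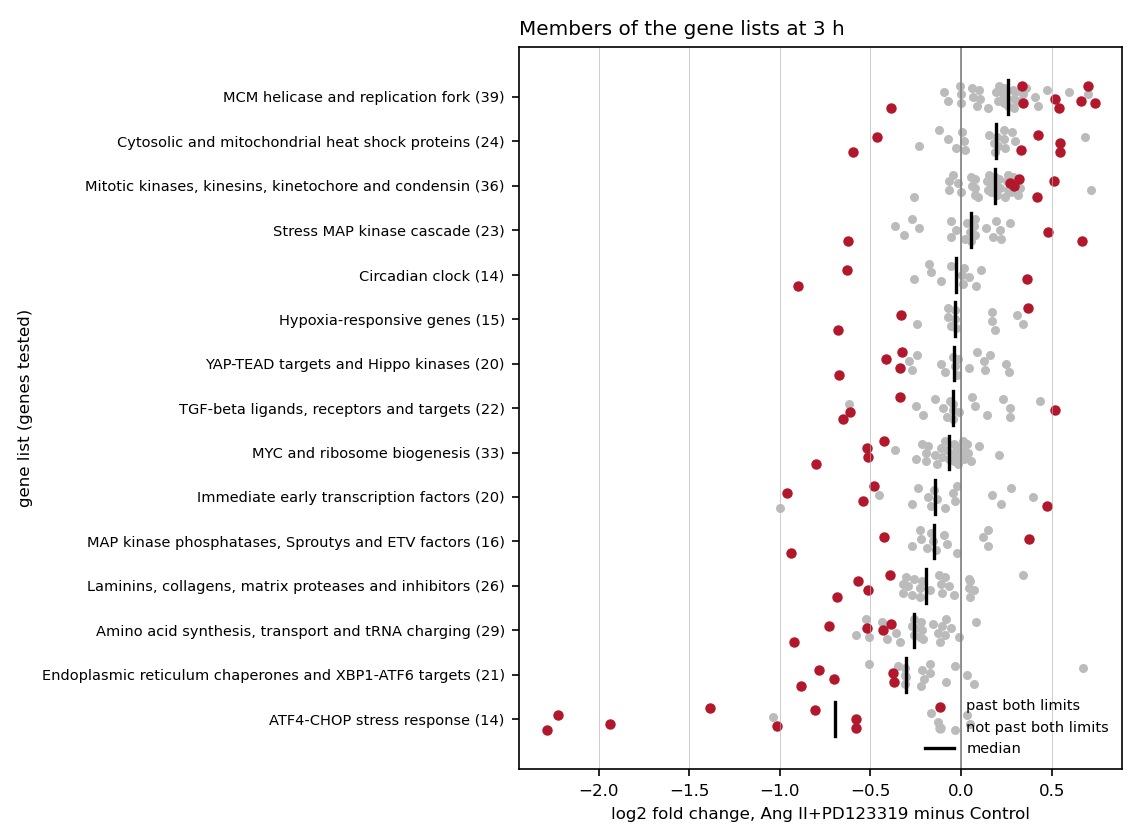
Log2 difference Ang II+PD123319 minus Control at 3 h (horizontal axis) of each tested member of the 15 gene lists with at least 3 called members (rows). Red points passed both limits and black bars are the medians, which run from -0.69 for the ATF4-CHOP genes to 0.26 for the replication genes.

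The immediate early factors are the genes that a receptor such as AT1 induces first. Of 20 tested, 3 were lower and 1 higher at 3 h, and the median was -0.14. Among all genes tested 3.48% were lower and 2.58% higher. Jund, a subunit of AP-1, was at 11.50, 11.43, 12.07 and 12.01 in Control and at 12.16, 12.26, 12.29 and 12.19 in Ang II+PD123319. The groups did not overlap (0.47, SE 0.12, limma, adjusted p = 0.458).

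Fosl1, another AP-1 subunit, was at 11.43, 11.40, 10.88 and 10.77 in Control and at 11.15, 10.74, 10.11 and 10.56 in Ang II+PD123319 (-0.48, SE 0.13, limma, adjusted p = 0.458). Jund and Fosl1 stayed called without any 1 replicate. Egr1, a zinc finger factor, was at 7.6, 9.14, 6.39 and 7.69 against 7.98, 6.66, 5.37 and 6.98. Its difference of -0.96 (SE 0.41) rested on replicate 2 (-0.45 without it) and was not called without replicate 3 (-0.93) or 4 (-1.04) either. Ier2, a nuclear protein induced by growth factors, did not overlap between the groups (-0.54, SE 0.24) but lost its call without replicate 1 (-0.59), 2 (-0.37), 3 (-0.63) or 4 (-0.56).

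Among MAP kinase phosphatases, Sproutys and ETV factors, the feedback genes of the ERK pathway, 2 of 16 were lower (Dusp8 and Dusp4, a nuclear phosphatase at -0.43, SE 0.19) and Dusp14, a small phosphatase, was higher (0.38, SE 0.15). The median was -0.15. Of 23 genes of the stress MAP kinase cascade 2 were higher and 1 lower, with a median of 0.05. Beside both lists, 2.58% of all genes tested were higher and 3.48% lower.

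Targets of YAP-TEAD and of TGF-beta included genes that were also lower than in cells given Ang II alone. Ctgf (now Ccn2), a matrix-associated growth modulator that AT1 stimulation is known to induce, was at 12.61, 11.66, 11.46 and 11.35 in Control, at 12.78, 12.11, 11.24 and 10.89 with Ang II, and at 12.44, 10.97, 10.48 and 10.49 with Ang II+PD123319. The treated array was the lowest of the 3 in each replicate, although the groups overlapped across slides. Against Control the difference was -0.67 (SE 0.17, limma, adjusted p = 0.458), and against Ang II it was -0.66 (SE 0.17, limma, adjusted p = 1). Ang II alone differed from Control by -0.01.

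Ctgf stayed called against Control without any 1 replicate. Crim1, a membrane protein that binds growth factors, was lower by -0.41 (SE 0.15) and not without replicate 3 (-0.29). F3, the tissue factor of coagulation, was lower by -0.33 (SE 0.12), close to the fold limit, with the pairs at -0.34, -0.35, -0.39 and -0.23. Its call was lost whichever replicate was left out, at -0.36 to -0.31, though not without replicate 4 when the probes of all genes were held. In all, 4 of 20 YAP-TEAD genes were lower and none higher, where 3.48% of all genes tested were lower. The median was -0.04, so in its median the list as a whole did not stand apart from the -0.00 of all genes.

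In the TGF-beta list 3 of 22 were lower and 1 higher, where 3.48% of all genes tested were lower and 2.58% higher. Fst, follistatin, an antagonist of activin, was at 12.05, 10.60, 9.87 and 11.18 in Control and at 11.32, 9.94, 9.02 and 10.95 in Ang II+PD123319, lower in each pair (-0.62, SE 0.14, limma, adjusted p = 0.458). Skil (SnoN), an inhibitor of SMAD signalling, was lower by -0.65 (SE 0.19), and Fst and Skil stayed called without any 1 replicate. Smad6, an inhibitory SMAD, was higher by 0.52 (SE 0.18), not without replicate 3 (0.49) or 4 (0.47). Tgfb2, the ligand, was lower by -0.34 (SE 0.16), near the fold limit, and was not called at -0.40 to -0.31 when any replicate was left out.

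Of 26 matrix genes 4 were lower, where 3.48% of all genes tested were lower, and the list median was -0.19. Lamb1, a laminin chain, was at 9.86, 11.63, 11.33 and 11.93 in Control and at 9.69, 10.85, 10.96 and 11.19 in Ang II+PD123319 (-0.51, SE 0.12, limma, adjusted p = 0.458). Col1a2, a collagen chain, was lower by -0.68 (SE 0.18), and Lamb1 and Col1a2 stayed called without any 1 replicate. Mmp3, a matrix protease, differed by -0.39 (SE 0.14) and was not called without replicate 1 (-0.33), 2 (-0.33) or 4 (-0.32).

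Against Ang II alone the cells differed in fewer genes. Ang II alone against Control at 3 h called 1495 genes (11%), of which 4.99% of the genes tested were higher and 5.98% lower, none with an adjusted p under 0.05 by limma and 1732 with an unadjusted p under it. The direct comparison of Ang II+PD123319 with Ang II called 363 of 13630 genes (2.66%), 276 higher (2.02%) and 87 lower (0.638%), and 410 (3.01%) had an unadjusted p under 0.05, below the 681.5 given by chance. No gene had an adjusted p under 0.05 by limma. Of the 352 genes higher than in Control 6 were also higher than with Ang II alone (1.70%), and of the 475 lower ones 26 were also lower (5.47%). Both comparisons use the same Ang II+PD123319 arrays, so these are given as counts only. The calls rested on the fourth slide: 48 genes were called without replicate 4 and 734 without replicate 1.

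None of the 14 ATF4-CHOP genes, 39 replication genes, 36 mitotic genes, 29 amino acid genes or 21 ER genes was called against Ang II alone. The difference was -0.03 for Trib3, 0.22 for Ddit3, 0.06 for Atf4 and 0.02 for Gins2, while Ang II against Control gave -2.26, -2.45, -1.08 and 0.72. Both comparisons with Control use the same 4 Control arrays, including replicates 2 and 4, where Control was high for the stress genes. Of the 24 genes with the largest changes only Slc4a7 was also called against Ang II alone (-0.47, SE 0.20, limma, adjusted p = 1). Cells given Ang II after Losartan read 6.37, 6.81, 9.71 and 8.67 for Slc4a7, below Control in each replicate but replicate 3.

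Of 878 list members tested, 16 were called against Ang II alone, 14 lower and 2 higher, where 0.638% of all genes tested were lower and 2.02% higher. They came from 10 of the lists, each with 1 to 3. Hbegf, a ligand of the EGF receptor, was at 8.48, 7.6, 6.41 and 6.32 in Control, at 8.54, 7.88, 6.24 and 6.41 with Ang II and at 8.44, 6.79, 5.74 and 5.74 with Ang II+PD123319. In each replicate the Ang II+PD123319 array was the lowest of the 3, by a small margin in replicate 1. The cells given Ang II after Losartan read 8.66, 6.98, 5.87 and 5.99. Outside replicate 1 these too were below Control and Ang II alone, so the lower level was not particular to PD123319. With Ang II+PD123319 Hbegf was lower than with Ang II by -0.59 (SE 0.16, limma, adjusted p = 1) and lower than Control by -0.53 (SE 0.16). Fosl1 (-0.41), Fst (-0.39), Skil (-0.41), Mmp3 (-0.38) and Crim1 (-0.33) were likewise lower than with Ang II alone. Dusp6 and Etv4, feedback genes of ERK named after their values were seen, were lower by -0.37 and -0.47, and Yap1 and Tcf3 were higher by 0.31 and 0.39.

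Of 33 genes of MYC and ribosome biogenesis 4 were lower and none higher, where 3.48% of all genes tested were lower, and the median was -0.07. Myc, the growth factor-induced regulator, was at 9.19, 10.28, 10.41 and 10.04 in Control and at 8.63, 8.91, 10.29 and 8.89 in Ang II+PD123319 (-0.80, SE 0.20, limma, adjusted p = 0.458). It was lower in 4 of 4 pairs, least in replicate 3. Nop58, a core protein of small nucleolar ribonucleoproteins, did not overlap between groups (-0.51, SE 0.16). Gnl3 (nucleostemin) was lower by -0.52 (SE 0.12) in the 3 pairs it was measured in, without a value for Control replicate 4, and Bysl, a factor of the small ribosomal subunit, by -0.43 (SE 0.13). All 4 stayed called without any 1 replicate. Of 67 cytosolic ribosomal proteins 2 were lower, Rpl13a and Rpl23, a share near that of all genes.

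The circadian list held 2 lower and 1 higher of 14 genes, where 3.48% of all genes tested were lower and 2.58% higher. Per2, a clock repressor, was lower by -0.63 (SE 0.19), in 4 of 4 pairs. Nfil3, a repressor of clock output, was lower by -0.90 (SE 0.31) in replicates 2 and 4 and not without them (-0.66 and -0.59), and Tef, an activator of clock output, was higher by 0.36 (SE 0.14). Among hypoxia genes Vegfa, the angiogenic factor, was lower by -0.68 (SE 0.25; not called without replicate 4, -0.57), P4ha2, which hydroxylates collagen, by -0.33 (SE 0.11), and Ndrg1 was higher by 0.37 (SE 0.14), of 15 tested. The medians of these lists were both -0.03, and under the normexp background they were 0.01 and 0.07. The other 13 lists drawn kept the sign of their medians under each scaling tried.

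The renin-angiotensin genes could be read only in part. Agtr1a and Agtr1b, which encode AT1, Agtr2, which encodes AT2, and Mas1, the receptor of angiotensin 1-7, were above background on 0 of the 8 arrays, as were Anpep, Mme and Zbtb16. Agt, the precursor, and Enpep, an aminopeptidase, were above it on 4. A probe that is not above background gives no level, so the array does not measure either receptor in these cells. Of 8 genes tested 1 was lower. Agtrap, a protein that promotes internalization of AT1, was at 8.57, 9.0, 9.87 and 9.5 in Control and at 8.09, 8.45, 9.62 and 9.15 in Ang II+PD123319, lower in each pair (-0.41, SE 0.10, limma, adjusted p = 0.458), and it stayed called without any 1 replicate. The cells given Ang II alone were lower as well (-0.46), and at 6 h the difference was 0.01.

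Of the others, these were within the spread: Ace, the converting enzyme (-0.19), Atp6ap2, the prorenin receptor (-0.11), and the peptidases Nln (-0.04), Lnpep (-0.10) and Prcp (0.18). Mtus1, an AT2-interacting protein, was at 0.11 and not called, but its 2 probes went opposite ways, at -0.18 (SE 0.13) and, past both limits by itself, at 0.39 (SE 0.13). No gene was called among 24 of the G protein signalling of angiotensin receptors, 8 NADPH oxidase subunits, 4 aquaporins, 22 integrin and focal adhesion genes, 57 of oxidative phosphorylation or 36 proteasome subunits. In 10 of the 39 lists no member passed both limits, and 14 had 1 or 2.

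At 6 h, on 8 other arrays, the same comparison called 2213 of 16446 genes (13.5%; 7.06% higher and 6.4% lower), and 227 genes (1.38%) had an adjusted p under 0.05 by limma. Of 13617 genes tested at both times, 204 were called at both, which is 24.7% of the 826 called at 3 h and 13.2% of the 1540 called at 6 h. Of those, 83 were higher at both times and 113 lower at both. Of the genes called at 3 h 79.3% had the same sign at 6 h, as had 62.4% of all genes.

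The stress genes showed the same kind of step at 6 h, on the arrays of the same replicate numbers. Ddit3 was at 10.21, 15.03, 10.42 and 14.87 in Control and at 10.04, 12.83, 10.25 and 12.65 in Ang II+PD123319. Replicates 2 and 4 were again high in Control and lower in the treated cells, but there the treated cells were at an intermediate level, and replicates 1 and 3 were low in both. Of the 14 ATF4-CHOP genes 8 were lower, where 6.4% of all genes tested were, and the pair medians were 0.06, -0.63, -0.14 and -0.86.

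Hspa5 showed the step as well at 6 h. Control was at 13.28, 15.90, 13.40 and 15.59 and Ang II+PD123319 at 13.47, 14.03, 13.48 and 13.87, so that the chaperone was now low or nearly low on every treated array. Calls were more frequent at 6 h in general, where the median SE was 0.10 against 0.16 at 3 h. Among all genes tested 6.4% were lower at 6 h, against 3.48% at 3 h, and 7.06% higher, against 2.58%. Of 21 ER genes 12 were lower at 6 h, against 5 at 3 h, and of 29 amino acid genes 23 were lower, against 5. Of the replication genes 8 were higher and of the mitotic ones 6. The difference between the times was not past the adjusted limit for any of these genes.

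**Figure D4:**
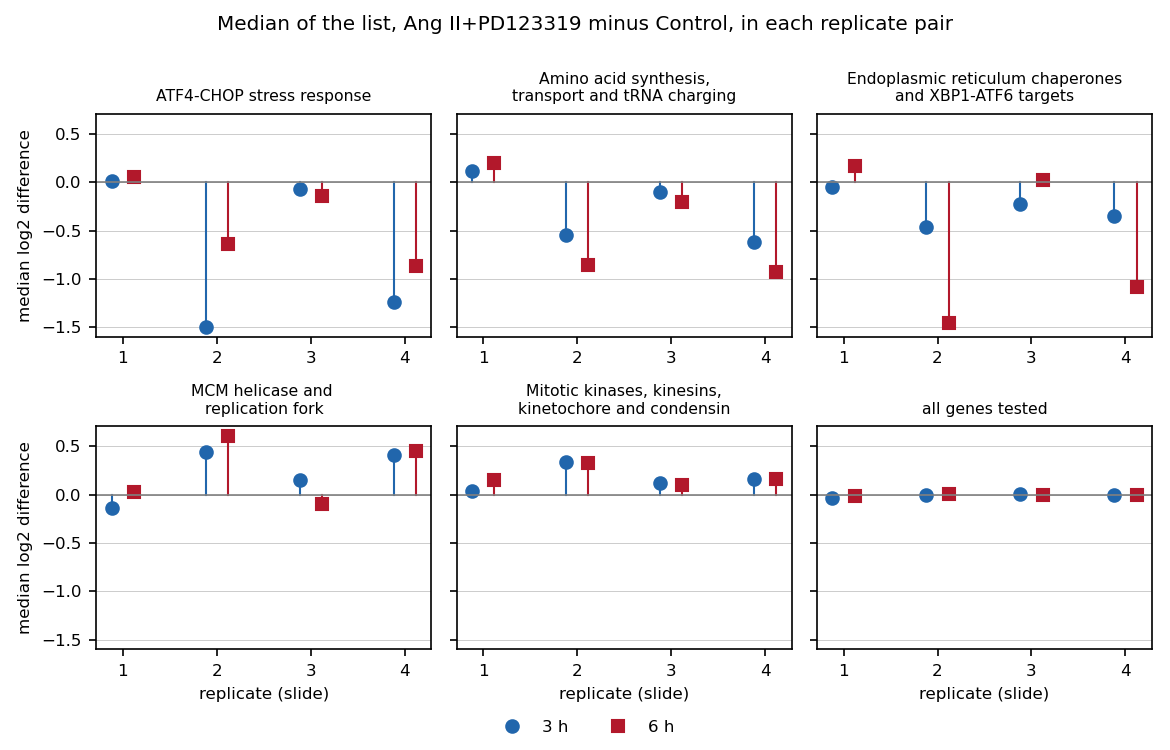
Median log2 difference Ang II+PD123319 minus Control of the members of gene lists (vertical axis) in each replicate at 3 h and at 6 h (horizontal axis). The ATF4-CHOP genes lie near 0 in replicates 1 and 3 and between -1.49 and -0.63 in replicates 2 and 4 at both times.

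The direct test of 6 h minus 3 h called 1057 of 16458 genes (6.42%), 3.19% with a higher difference at 6 h and 3.23% with a lower one. Only 2 (0.0122%) had an adjusted p under 0.05 by limma, Abra and RGD1562914, both too dim for the test at 3 h. Among the genes above, Vdac3, higher at 3 h, differed by -0.08 at 6 h, and the difference between the times, -0.82, passed both limits. Dusp8, lower at 3 h, was at 0.11 at 6 h (1.05 between the times, past both limits). Fst, Hbegf, Hsf1 and Agtrap, lower at 3 h, differed by 0.01, 0.02, 0.05 and 0.01 at 6 h. Ctgf was as low at 6 h (-0.65, SE 0.13, limma, adjusted p = 0.0406) as at 3 h. Crim1 (-0.60, limma, adjusted p = 0.0249) and Tgfb2 (-1.18, limma, adjusted p = 0.0468) were lower at 6 h as well.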

How the data were processed

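Total RNA of C6 cells was labelled with Cy3 and hybridized by the authors, 1 array per sample, 4 arrays on each slide. Signals were extracted with Agilent Feature Extraction 9.5.3.1, per the file headers, and the deposited scanner files hold the intensity of each spot after background subtraction. The deposited log2 values per probe are the log2 of the same signal, with no scaling between arrays and 38.2% of the values blank.

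Outlier spots were left out, a dim spot at 3 h took the error of its signal as its value, spots of a probe and then probes of a gene were averaged, and a gene had no value on an array where one of its probes had a gap. At most 2 gaps were allowed per probe. The 16 arrays of 3 h were normalized together by cyclic loess (span 0.7, 3 iterations) and fitted with limma 3.58.1 in R 4.3.3 (files read with data.table, version 1.17.8), with the slide as a block, as the series record's paired design asks. p-values received a Benjamini-Hochberg adjustment over all genes tested, and the limits were an unadjusted p under 0.05 with a fold change above 1.2 or below 0.8. A probe was kept if some group was well above background in each of its 4 replicates. The replicate number is the slide, which pairs the arrays: deviations of Ang II+PD123319 and Control from their group means correlated at 0.82, 0.43, 0.83 and 0.57 in replicates 1 to 4, across genes. Replicates 1 and 2 were read in scan 1 and replicates 3 and 4 in scan 2.

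Named genes are the 12 highest and 12 lowest differences among called genes with a symbol, the same direction in 4 pairs and a signal above background on 8 arrays, every renin-angiotensin gene, and up to 4 called members of each of 39 lists. A few of the genes this rule names are not reported here. The members and lists were chosen with earlier results of these data known. Of 1138 list genes 36 were not found. On simulated data with 13320 genes, 81% of genes changed by 0.5 and 94% of those changed by 1 were called in Ang II+PD123319 versus Control at 3 h. With no change added 3.5% were called. The share with an adjusted p under 0.05 by limma was 6.5% for a change of 0.5 and 70.5% for 1. The simulated noise was independent between genes and arrays, without the shared steps on single arrays described above, so these shares need not hold for the data. Precision is set by the number of arrays, and the median SE was 0.16. Promoters are from RefSeq, and 170 of 196 list members looked up had one. Promoters were searched and plots made in Python 3.11.15 (pandas 2.3.3, numpy 2.4.6, matplotlib 3.10.9).

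The alternatives tried were no block, a t-test per gene (paired, as in the series record, and the methods' t-test), other scalings and backgrounds, other filters, each probe on its own, the 8 arrays alone, the deposited values, each scan alone and each replicate left out.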

Additional observations from a re-analysis of the deposited data

Results flagged for a closer look

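In a group of 4 arrays, a single array far from the other 3 was looked for in each group of each called gene named above. Among independent groups that were not selected, chance gives such an array in about 1 in 20. The genes here were selected as called and share the same arrays, so their share cannot be compared with that rate. Such an array was found in 23 of 197 groups (11.7%). In 12 of them it was Control replicate 1, lowest of its group: Atf4 at 12.75, Cars at 8.97, Ddit3 at 10.25, Gramd1b at 5.88, Herpud1 at 9.75, Hspa4 at 11.04, Hyou1 at 11.10, Mthfd2 at 9.19, Nfxl1 at 6.46, Nupr1 at 8.51, P4ha2 at 8.97 and Trib3 at 6.62. Control replicate 1 was highest for Cryab (14.29), and Control replicate 2 lowest for Asna1 (5.81) and Ppp1r8 (7.24).

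In Ang II+PD123319 the array apart was most often replicate 3, highest for Ddit3 (15.16), Mthfd2 (10.997), Myc (10.29) and Per2 (6.02) and lowest for Notch1 (6.37). Replicate 1 was highest for Cryab (14.55) and Vdac3 (13.65) and lowest for Hyou1 (10.94). The arrays of replicate 1 in Control and replicate 3 in Ang II+PD123319 are thus those whose level of stress genes differed from the rest of their group.

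The difference between Ang II+PD123319 and Control changed between 3 h and 6 h, by the direct test, for Abra, an actin-binding activator of SRF, by -1.23 (limma, adjusted p = 0.00818) and for RGD1562914 by -1.37 (limma, adjusted p = 0.00818). Both were lower at 6 h, by -1.17 and -1.06. At 3 h both were too dim to be tested, and a dim spot at 3 h carried the error of its signal in place of a value, which was not so at 6 h.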

How the results depend on the processing

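The limits are those of 4 arrays a group. Of 100 called genes named above, 38 stayed called whichever replicate was left out, and 18, 40, 26 and 46 lost the call without replicate 1, 2, 3 and 4. With each gene held to the probes used with all replicates, chosen after seeing the data, 18, 40, 25 and 44 lost it and 593 to 987 genes were called. Hps1 and F3 then kept their calls without replicate 4. Without the slide as a block 87 lost it, with the paired t-test 53, with the methods' t-test 92, with the normexp background 38, and with the 75th percentile scaling 10. Scan 1 alone lost 67 and scan 2 alone 41. None of them changed direction past its limits. Rfc4, a replication factor subunit at -0.00, was 0.28 and called in scan 2 alone. The cause was not tested.

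The count of 827 genes was 119 without the replicate block (59 higher, 60 lower), 521 with the paired t-test (243 lower), 148 with the methods' t-test (69 higher, 79 lower), 546 with the normexp background (198 lower), 1518 without a filter on dim probes (843 higher) and 469 in scan 1 alone (230 lower). With the 8 arrays alone 604 were higher. It stayed within 1.5 times under the other settings, such as 804 with the 75th percentile scaling and 953 with quantile normalization. Leaving out a replicate gave 608 to 1009 genes, 264 to 410 higher and 308 to 599 lower, the lowest count of lower genes being without replicate 2. No gene had an adjusted p under 0.05 in any setting. Averaging a gene over the probes present on an array, which was chosen after seeing the data, gave 831.

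Against Ang II alone, 363 genes became 62 without the replicate block (52 higher, 10 lower), and with the 75th percentile scaling 430 were higher and 29 lower. Leaving out a replicate gave 48 to 734 genes, 17 to 532 higher and 31 to 202 lower, without replicate 4 and without replicate 1 at the ends. For 6 h minus 3 h, 1057 became 221 without the replicate block (72 higher, 149 lower), and 669 to 1196 without a replicate (283 to 613 higher, 386 to 583 lower). Its 2 genes past the adjusted limit became 0 without the block, 0 with the 75th percentile scaling and 0 to 6 without a replicate.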
